A study of Mus musculus with 15 samples.

Results

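The genes described here are 50 enzymes and relatives of the iron and 2-oxoglutarate dependent dioxygenase family, 50 of the 26301 genes in the count files. They were chosen by name, as the Jumonji C (JmjC) proteins, the TET enzymes, the HIF and collagen hydroxylases, the AlkB family and a few other hydroxylases, with no threshold on a measured value. All 50 symbols matched a row of the counts and a gene model. The family includes Kdm3a, the gene of JMJD1A, whose level the study altered, and the comparison of interest was whether its relatives moved when Kdm3a was lowered or expressed again.

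The counts came from 3T3-L1, a clonal mouse preadipocyte line, on day 2 after adipogenic induction with insulin (1.67 uM), dexamethasone (1 uM) and the phosphodiesterase inhibitor IBMX (at 115 ug/mL). All 15 libraries were made from poly(A) RNA of cells infected with pMXs-based retroviral vectors. The 5 conditions had 3 libraries each. Cells with an empty short hairpin vector (sh-Empty) were the controls of cells with a hairpin against Jmjd1a (sh-Jmjd1a, also called JMJD1A-KD). The other 9 libraries all carried the Jmjd1a hairpin and also expressed LacZ, wild-type JMJD1A, written JMJD1A(WT), or JMJD1A(H1122A), in which the site that holds the iron is mutated. Per the study's methods the lines were stable, drug-selected populations, and the labels do not say whether replicates of a condition were infected or cultured separately. The p-values therefore measure the spread between these libraries, which may be technical.

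Enzymes of this family hold an Fe(II) ion in their active site and use molecular oxygen and 2-oxoglutarate to hydroxylate a substrate, releasing succinate and carbon dioxide. In JmjC and AlkB proteins, hydroxylation makes a methyl group of a histone lysine or of a nucleic acid unstable, so that it is removed. TET enzymes oxidise the methyl group of 5-methylcytosine. Other members hydroxylate proline or lysine, in hypoxia-inducible factor (HIF) to mark it for destruction in the presence of oxygen, or in procollagen to let the triple helix form. Kdm3a is itself known as a gene induced in hypoxia, and its protein removes mono- and dimethylation from lysine 9 of histone H3 (H3K9).

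The codon that the H1122A mutant changes is shown with the matching stretch of the KDM3 relatives, the group to which Kdm3a belongs. The 57-base windows are coding-strand sequence of mm9. The capitals are the codons that align to the codon the mutant changes and to the one 2 places after it in Kdm3a, both of which belong to the iron-binding motif of the JmjC domain.
Kdm3a, chr6:71542110-71542166, minus strand: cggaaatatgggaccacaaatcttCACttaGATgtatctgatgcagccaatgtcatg
Jmjd1c, chr10:66708802-66708858, plus strand: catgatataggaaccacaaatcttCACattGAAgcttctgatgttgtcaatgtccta
Hr, chr14:70967600-70967656, plus strand: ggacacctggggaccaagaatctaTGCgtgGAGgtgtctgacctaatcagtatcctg
Each window lies in a single exon. The first capital codon is the same in Jmjd1c as in Kdm3a, and that of Hr codes for another amino acid. The second capital codon codes for aspartate in Kdm3a and for glutamate, also an acidic amino acid, in both Jmjd1c and Hr. Iron binding by these products was not tested here. Kdm3b, of which no sequence is shown, codes for the same amino acids as Kdm3a at both positions. Over the aligned codons, the identity to Kdm3a was 54.2% for Kdm3b (1054 codons), 43.4% for Jmjd1c (1018 codons) and 30.6% for Hr (686 codons).

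Total counts ranged from 11437058 to 25523148 per library, with a median of 12916162, and the deepest library was JMJD1A(WT) replicate 3. Levels are given as CPM, counts scaled by the normalised library total (TMM), in the order of replicates 1 to 3. The 6 knockdown libraries and the 9 rescue libraries were fitted in separate models, so differences are stated within each set. A gene is said to be called, higher or lower, at an adjusted p under 0.05 by edgeR's quasi-likelihood F test, corrected over all genes tested. Adipocyte markers were present in every library, and 13 of the 14 markers of immune, epithelial, endothelial and muscle cells stayed under 1 CPM in every library, with 3 of them at 0 throughout.

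Kdm3a itself had 171, 174 and 185 CPM in sh-Empty cells and 129, 128 and 138 CPM in sh-Jmjd1a cells. The groups did not overlap, and the log2 fold change was -0.42 (SE 0.048, edgeR adjusted p = 2.91e-08), so that the hairpin left 74.6% of the control transcript level. With LacZ the level was 122, 116 and 118 CPM, with JMJD1A(WT) 1768, 1639 and 1662 CPM and with JMJD1A(H1122A) 2288, 2199 and 2103 CPM. Each construct raised the transcript far above both the knockdown and the sh-Empty libraries. Relative to LacZ the log2 fold change was 3.83 with JMJD1A(WT) and 4.21 with JMJD1A(H1122A), and the mutant exceeded the wild type by 0.38 (SE 0.034, edgeR adjusted p = 3.94e-12). Counts do not tell the introduced sequence from the endogenous transcript.

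The closest relative, Kdm3b, which also removes methyl groups from H3K9, moved against Kdm3a on knockdown and rescue. It had 81.8, 85.4 and 82.5 CPM in sh-Empty and 92.02, 94.4 and 105 CPM in sh-Jmjd1a cells. All 3 knockdown libraries lay above all 3 controls, with a log2 fold change of 0.23 (SE 0.058, edgeR adjusted p = 0.00181). In the rescue set it had 98.6, 89.5 and 94.8 CPM with LacZ, 88.9, 75.9 and 83.5 CPM with JMJD1A(WT) and 103, 96.5 and 93.7 CPM with JMJD1A(H1122A). The wild-type libraries were below those of both other conditions, with a log2 fold change against LacZ of -0.19 (SE 0.056, edgeR adjusted p = 0.0253), and the mutant was above the wild type by 0.24 (SE 0.057, edgeR adjusted p = 0.00146). Leaving out LacZ replicate 1 or 3, or replicate 2 or 3 of the wild type, ended the call against LacZ, and over all libraries left out in turn the log2 fold change ran from -0.24 to -0.14. Kdm3b shares 53 exon bases with an opposite-strand gene model, and the strand setting of the counting is not given in the sources used here.

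Jmjd1c, a larger relative with a JmjC domain, had 189, 204 and 194 CPM in sh-Empty and 206, 191 and 229.8 CPM in sh-Jmjd1a cells. These groups overlapped and the log2 fold change of 0.09 (SE 0.054, edgeR adjusted p = 0.167) was not called, although it was called without sh-Jmjd1a replicate 2, at 0.16. It had 212, 197 and 201 CPM with LacZ and 187, 181 and 188 CPM with JMJD1A(WT), where all wild-type libraries were lower, with a log2 fold change of -0.13 (SE 0.043, edgeR adjusted p = 0.0456). That call did not hold when LacZ replicate 1 or 3, any wild-type library or replicate 1 of the mutant was left out (values from -0.15 to -0.10), or with DESeq2. Hr, the hairless corepressor and the most distant of the KDM3 group, was rare, with 4.49, 4.48 and 4.79 CPM in sh-Empty and 5.67, 2.74 and 4.04 CPM in sh-Jmjd1a cells. Its libraries overlapped in every comparison, and the interval of its log2 fold change on knockdown ran from -0.63 to 0.30. Against LacZ the value with JMJD1A(WT) was 0.68 (SE 0.27, edgeR adjusted p = 0.135), not called, but called without LacZ replicate 1 or JMJD1A(WT) replicate 2.

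The KDM4 enzymes, which remove di- and trimethylation from H3K9 and H3K36, showed no call on knockdown, with edgeR and also at an unadjusted p under 0.05 (0 of 3 tested). Kdm4a had 114, 115 and 106 CPM in sh-Empty and 121, 109.5 and 108 CPM in sh-Jmjd1a cells, with an interval of the log2 fold change from -0.09 to 0.13. The interval was -0.04 to 0.21 for Kdm4b and -0.20 to 0.13 for Kdm4c, so that changes of these 3 genes larger than those bounds were not seen. Kdm4d was near absence, with 0 to 6 counts per library, and was not tested. In the rescue set Kdm4b had 77.7, 71.6 and 69.9 CPM with LacZ, 72.0, 63.4 and 69.05 CPM with JMJD1A(WT) and 81.5, 79.03 and 88.2 CPM with JMJD1A(H1122A). The mutant libraries were all above the wild type, with a log2 fold change of 0.28 (SE 0.060, edgeR adjusted p = 0.00038), and the wild type against LacZ was not called (-0.10). The mutant against LacZ, at 0.18 (SE 0.060, edgeR adjusted p = 0.0522), missed the threshold, although those groups did not overlap. It was called without a filter on low counts, with the legacy edgeR method, with the replicate block and with all 15 libraries in 1 fit, and also without LacZ replicate 1 or replicate 2 of either construct (values from 0.13 to 0.23 with a library left out).

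The PHF group of H3K9 demethylases moved in both directions on knockdown. Kdm7a, which acts on H3K9 and H3K27 dimethylation, had 200.0, 203 and 191 CPM in sh-Empty and 134, 126 and 148 CPM in sh-Jmjd1a cells. Every knockdown library was lower, with a log2 fold change of -0.54 (SE 0.052, edgeR adjusted p = 1.07e-09) and an interval from -0.65 to -0.44 that overlaps that of Kdm3a, -0.52 to -0.32. Its level with JMJD1A(WT), 149, 137 and 153 CPM, overlapped that with LacZ, 139, 146 and 142 CPM, and the log2 fold change was 0.05 (SE 0.048, edgeR adjusted p = 0.652). With JMJD1A(H1122A) it was 136, 130.0 and 123 CPM, below the wild type by a log2 fold change of -0.18 (SE 0.049, edgeR adjusted p = 0.00473), a call lost without JMJD1A(WT) replicate 3. Kdm7a shares 287 exon bases with an opposite-strand gene model. Phf2, an H3K9 demethylase that is activated by phosphorylation, had 83.6, 85.2 and 79.04 CPM in sh-Empty and 92.98, 96.8 and 99.5 CPM in sh-Jmjd1a cells, without overlap, and a log2 fold change of 0.23 (SE 0.055, edgeR adjusted p = 0.00114). It was not called in the rescue set, at -0.06 and 0.01.

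To set these genes on a common scale, CPM were divided by exon length in kb. Kdm3a fell by 9.03 CPM per kb on knockdown, from 35.6 to 26.5, and the largest gains among the other H3K9 demethylases were 2.63 CPM per kb in Phf2 and 1.82 in Kdm3b, beside a fall of 6.19 in Kdm7a. The sum of the other 9 H3K9 demethylases among the members was 98.6 to 103.7 CPM per kb in the sh-Empty libraries and 97.3 to 104.5 in the sh-Jmjd1a libraries. Those ranges overlap almost fully, with means of 101.4 ± 2.59 and 101.7 ± 3.85 CPM per kb (SD, n = 3). Phf8, an H3K9 demethylase related to Phf2 that is not among the 50, fell from a mean of 4.66 to 3.06 CPM per kb. With Phf8 added after its value was seen, the means were 106.0 ± 2.80 and 104.7 ± 3.99 CPM per kb (SD, n = 3), so that the difference of means turned from 0.30 to -1.30 and stayed below either SD. The libraries then ranged from 103.0 to 108.5 and from 100.2 to 107.6, which overlap. The sum of all 10 genes was 135.8 to 138.6 CPM per kb in sh-Empty and 123.0 to 132.4 in sh-Jmjd1a cells, without overlap. In the rescue set the other 9 genes summed to 98.8 ± 3.38 CPM per kb with LacZ, 95.8 ± 3.15 with JMJD1A(WT) and 98.9 ± 2.27 with JMJD1A(H1122A) (SD, n = 3), while Kdm3a went from 23.9 to 340.4 and 442.5. The share of Kdm3a in the sum was 25.2% to 27.4% in sh-Empty, 20.1% to 21.1% in sh-Jmjd1a, 19.3% to 19.8% with LacZ, 77.4% to 78.6% with JMJD1A(WT) and 81.2% to 82.0% with JMJD1A(H1122A). Transcript levels say nothing of protein or activity, and most of the JMJD1A(H1122A) transcript is that of the mutant.

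**Figure D1:**
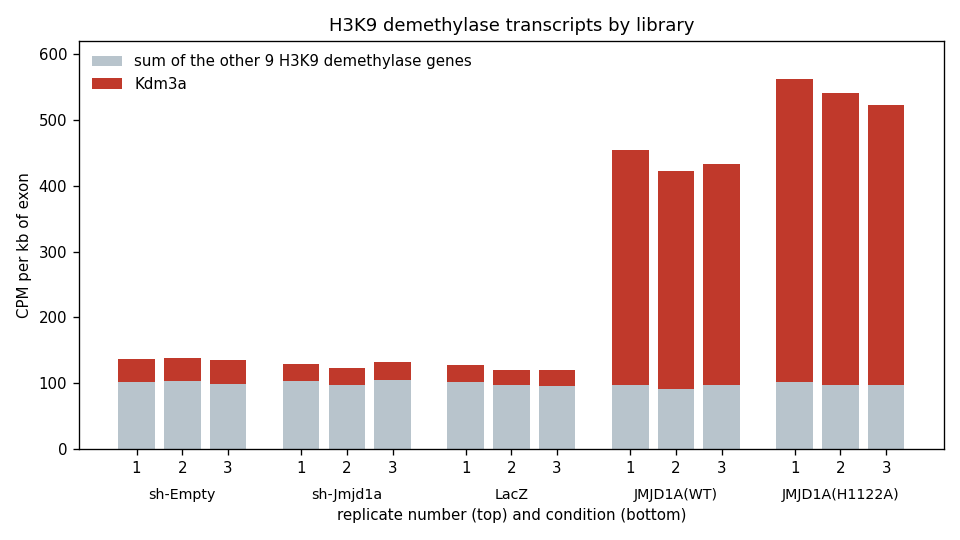
CPM per kb of exon (vertical axis) of the 10 H3K9 demethylase genes in each of the 15 libraries, as stacked bars, with Kdm3a in red on top of the sum of the other 9 in grey. The grey part lies between 92.2 and 104.5 in every library, while the red part is 23.5 to 37.2 without a JMJD1A construct and 330.2 to 460.9 with one.

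Over the family as a whole, the knockdown changed many members, but at the rate of other genes. Of the 49 members tested, 24 were called on knockdown, 14 higher and 10 lower, Kdm3a among the latter. Without Kdm3a this was 23 of 48, or 47.9%, against 46.2% of all 12272 genes tested (22.3% higher and 23.9% lower). The median absolute log2 fold change of these 48 was 0.19, against 0.22 over all genes, and their median was 0.02. All 23 had no overlap between the groups, which a call with 3 libraries per group makes likely. The share of all genes without overlap was not counted, so this is not a trait of the members. Changes of at least 1 on the log2 scale were seen in 3 members, P4ha3, Tet1 and Plod2, all higher. Among the 25 members not called, the 13 with at least 20 CPM in sh-Empty had intervals within 0.32 of 0.

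**Figure D2:**
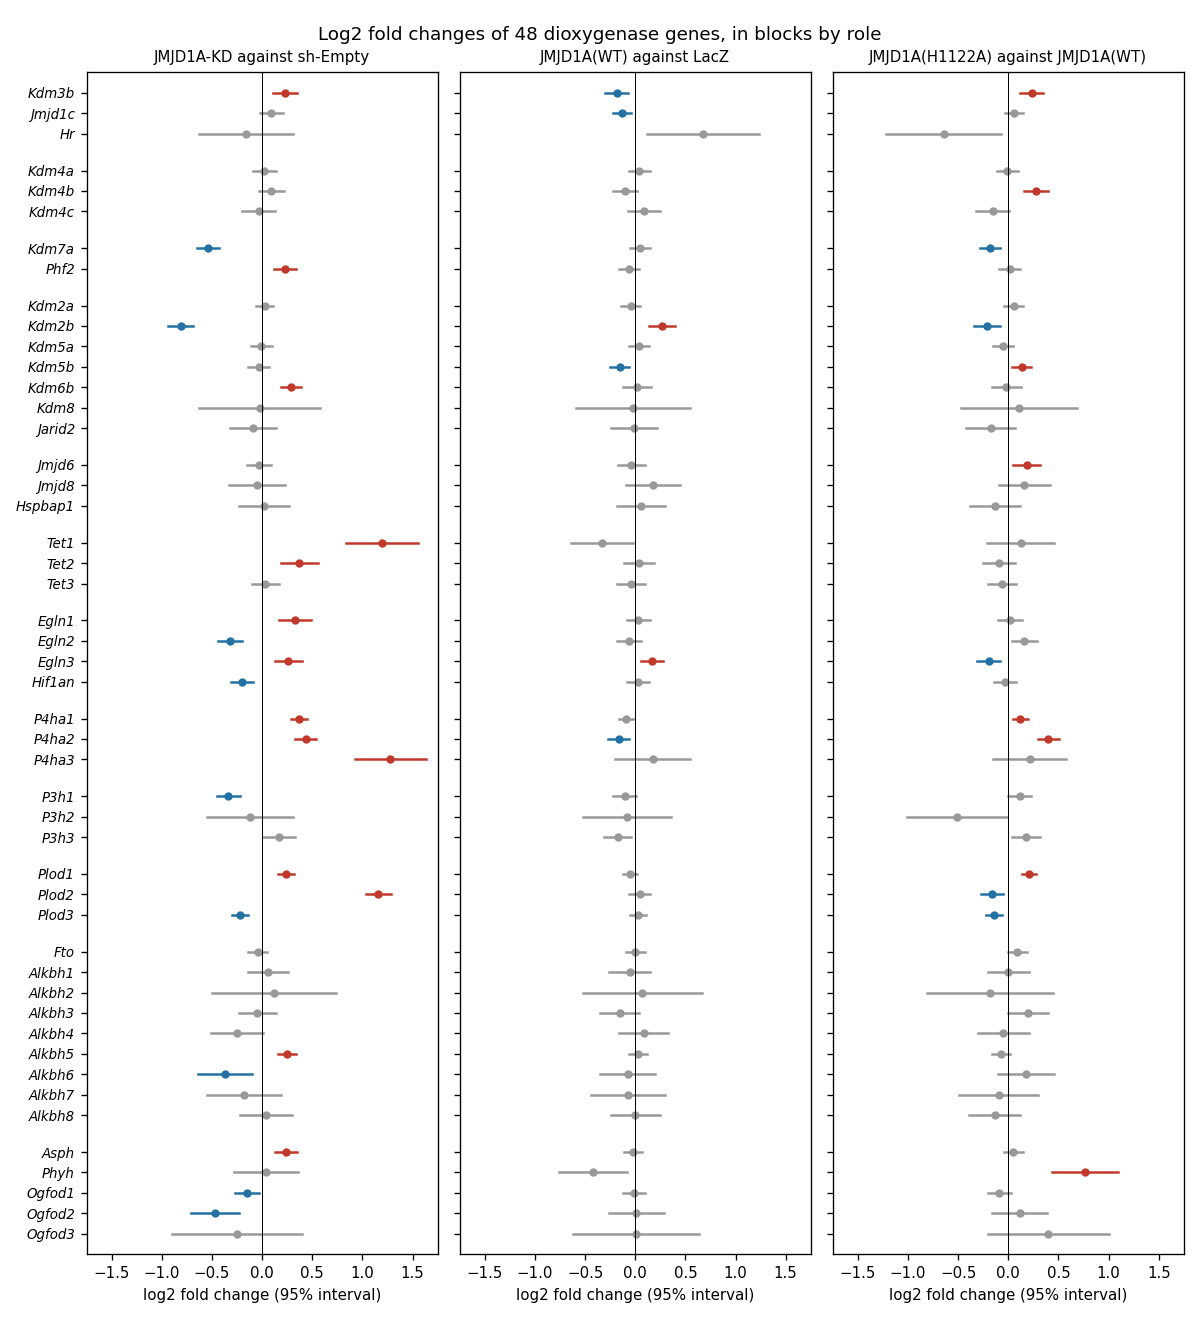
Log2 fold changes (points) with 95% intervals (lines) of 48 members in 3 comparisons, in blocks by role from KDM3 relatives at the top to other hydroxylases at the bottom, red where called higher, blue where called lower and grey where not called. Kdm3a, off this scale in the middle panel, and Kdm4d, not tested, are left out of all panels. The left panel holds 23 coloured genes, the middle 6 and the right 13, and only the left panel has points beyond 1.

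The collagen hydroxylases held 2 of the 3 largest changes on knockdown. Of the 9, 5 were higher and 2 lower (77.8% called, against 46.2% of all genes, 22.3% higher and 23.9% lower), and their median log2 fold change was 0.24, against -0.003 over all genes. The catalytic subunits of prolyl 4-hydroxylase, which make the 4-hydroxyproline that stabilises collagen, were all higher. P4ha1 had 268, 279 and 277 CPM in sh-Empty and 363, 356 and 344 CPM in sh-Jmjd1a cells, a log2 fold change of 0.37 (SE 0.040, edgeR adjusted p = 1.66e-08). P4ha2 had 91.98, 88.7 and 94.5 CPM and 123, 128 and 122 CPM, a log2 fold change of 0.43 (SE 0.051, edgeR adjusted p = 4.65e-08). P4ha3, the rarest subunit, had 4.05, 3.45 and 4.27 CPM and 9.25, 9.03 and 10.5 CPM, a log2 fold change of 1.28 (SE 0.17, edgeR adjusted p = 5.67e-07). In each of the 3 genes every knockdown library was above every control.

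Of the lysyl hydroxylases, whose products carry collagen cross-links and sugars, Plod2 had 47.8, 53.3 and 45.96 CPM in sh-Empty and 106, 110.1 and 112 CPM in sh-Jmjd1a cells. The knockdown libraries were far above the controls, with a log2 fold change of 1.16 (SE 0.061, edgeR adjusted p = 3.04e-15). Plod1 had 334, 316 and 323 CPM and 388, 391 and 370.0 CPM, a smaller rise of 0.24 (SE 0.040, edgeR adjusted p = 1.81e-05). Plod3 went the other way, from 302, 292 and 298 CPM to 260.4, 257 and 248 CPM, with a log2 fold change of -0.22 (SE 0.041, edgeR adjusted p = 4.82e-05). Plod3 shares 529 exon bases with Znhit1 on the opposite strand. Among the prolyl 3-hydroxylases, P3h1, which modifies single prolines of collagen in a complex with Crtap, was lower in all knockdown libraries, with 117, 104 and 115 CPM and 92.4, 88.2 and 85.9 CPM and a log2 fold change of -0.34 (SE 0.055, edgeR adjusted p = 9.86e-06). P3h2 (-0.12) and P3h3 (0.17) were not called.

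The collagen genes and helpers that these enzymes act with were mixed as well, with 9 of 18 higher and 6 lower, or 83.3% called against 46.2% of all genes. Col1a1, the main chain of type I collagen, rose from 1168 to 3122 mean CPM, a log2 fold change of 1.42 (SE 0.035, edgeR adjusted p = 1.29e-22), and its partner Col1a2 rose from 3033 to 6068 mean CPM. Over the same libraries all 11 adipocyte markers were lower, led by Cfd (-3.73) and Retn (-3.44), with a summed level of 5512 to 5602 CPM in sh-Empty and 2760 to 2911 CPM in sh-Jmjd1a cells. The summed level of 10 preadipocyte and fibroblast markers, Col1a1 and Col3a1 among them, was 10030 to 10180 CPM in sh-Empty and 15460 to 16500 CPM in sh-Jmjd1a cells. These markers were mixed, with 5 higher and 3 lower of 9 tested, or 88.9% called against 46.2% of all genes. Their log2 fold changes ran from -0.76 to 1.42. The part of this difference in adipocyte state in the changes of the dioxygenases was not tested. In bulk RNA, fewer cells of a kind and less RNA per cell cannot be told apart.

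The 4 HIF hydroxylases all passed the test on knockdown, as did 46.2% of all genes, and 2 were higher and 2 lower. Egln1, the main oxygen sensor of the HIF pathway, had 60.4, 60.1 and 57.8 CPM in sh-Empty and 74.7, 84.8 and 63.9 CPM in sh-Jmjd1a cells, a log2 fold change of 0.33 (SE 0.077, edgeR adjusted p = 0.00123). Egln3, known as a target of HIF, had 55.8, 52.5 and 58.5 CPM and 63.5, 71.1 and 65.4 CPM, a log2 fold change of 0.26 (SE 0.065, edgeR adjusted p = 0.00161). Both were higher in every knockdown library, though Egln1 in sh-Jmjd1a replicate 3 was close to the controls. Egln2 fell from 88.2, 77.5 and 84.03 CPM to 67.8, 64.6 and 67.5 CPM, a log2 fold change of -0.32 (SE 0.060, edgeR adjusted p = 6.11e-05). It shares 11 exon bases with an opposite-strand gene model. Hif1an, which hydroxylates an asparagine of HIF, fell from 121, 124 and 112 CPM to 104, 102 and 104 CPM, a log2 fold change of -0.20 (SE 0.052, edgeR adjusted p = 0.00206). Of 23 genes of the hypoxia response, 11 were higher and 6 lower, or 73.9% called against 46.2% of all genes, with a median log2 fold change of 0.11.

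Of the TET enzymes, Tet1 was rare in the controls, with 4.32, 4.396 and 4.53 CPM, and had 10.3, 8.23 and 11.8 CPM in sh-Jmjd1a cells. It rose in all 3 libraries, with a log2 fold change of 1.19 (SE 0.18, edgeR adjusted p = 2.12e-06). Tet2 had 29.2, 31.5 and 32.5 CPM and 35.8, 38.2 and 46.6 CPM, a log2 fold change of 0.37 (SE 0.089, edgeR adjusted p = 0.00109). Tet3, per length the most abundant of the 3 in sh-Empty cells, at 13.1 ± 1.27 CPM per kb (SD, n = 3), was not called, with an interval of the log2 fold change from -0.10 to 0.17. Per kb, Tet1 stayed below Tet2 and Tet3 in every library, also after its rise.

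Among the JmjC proteins that act on other histone residues, Kdm2b showed the largest fall in the family. This H3K36 demethylase, which also brings a Polycomb complex to CpG islands, had 96.03, 88.3 and 95.4 CPM in sh-Empty and 57.7, 51.2 and 50.6 CPM in sh-Jmjd1a cells. No library came near the other group, and the log2 fold change was -0.81 (SE 0.063, edgeR adjusted p = 1.19e-11). Kdm6b, an H3K27 demethylase, rose from 131, 123 and 122 CPM to 151, 149.6 and 158 CPM, by 0.29 (SE 0.048, edgeR adjusted p = 1.46e-05). The near relative of Kdm2b, Kdm2a (0.03), the H3K4 demethylases Kdm5a (-0.01) and Kdm5b (-0.03), Kdm8 (-0.03) and Jarid2 (-0.09), a Polycomb partner without demethylase activity, were not called. Neither was Jmjd6, Jmjd8 or Hspbap1, JmjC proteins outside the demethylases, with values from -0.05 to 0.02. Kdm2b overlaps opposite-strand gene models over 199 and 7 exon bases, and Kdm6b does so over 286.

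In the AlkB family, Alkbh5, which removes methyl groups from N6-methyladenosine in RNA, had 134, 136 and 137 CPM in sh-Empty and 163, 160.0 and 161 CPM in sh-Jmjd1a cells. The rise was small and even, with a log2 fold change of 0.25 (SE 0.045, edgeR adjusted p = 4.06e-05). Fto, the other eraser of that mark and a gene tied to obesity, had 125, 127 and 126 CPM and 120.1, 126 and 119 CPM, and its interval from -0.15 to 0.05 spans 0. Alkbh6 fell from 17.2, 11.9 and 14.8 CPM to 10.7, 11.7 and 11.4 CPM, a log2 fold change of -0.37 (SE 0.13, edgeR adjusted p = 0.0232). This call did not survive leaving out replicate 1 or 3 of the controls or replicate 1 of the knockdown (values from -0.48 to -0.25 over all libraries left out), nor the use of DESeq2. The other 6 tested AlkB members ranged from -0.25 (Alkbh4) to 0.12 (Alkbh2) and were not called.

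Of the remaining hydroxylases, Ogfod2 fell from 19.7, 17.2 and 16.8 CPM to 11.4, 13.3 and 13.7 CPM on knockdown, a log2 fold change of -0.47 (SE 0.12, edgeR adjusted p = 0.00132). Ogfod1, which hydroxylates a ribosomal protein, fell by 0.15 on the log2 scale, from 76.9, 77.7 and 81.6 CPM to 71.7, 69.5 and 72.1 CPM (edgeR adjusted p = 0.0327). Asph, an aspartyl hydroxylase of the endoplasmic reticulum, rose from 133, 117 and 129.5 CPM to 148, 143 and 157 CPM, by 0.24 (SE 0.052, edgeR adjusted p = 0.000425), and shares 2302 exon bases with Clvs1 on the opposite strand. Phyh, the peroxisomal enzyme that starts the breakdown of phytanic acid, was not called (0.04), nor was Ogfod3 (-0.25).

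Putting JMJD1A(WT) back moved few members. Of the 49 tested, 7 were called against LacZ, and 6 of 48, or 12.5%, without Kdm3a, against 9.50% of all 12557 genes (4.98% higher and 4.52% lower). Kdm2b and Egln3 were higher, and Kdm3b, Jmjd1c, Kdm5b and P4ha2 were lower. None of the 48 moved by 1 on the log2 scale, and among those not called, the 26 with at least 20 CPM with LacZ had intervals within 0.35 of 0. The median absolute log2 fold change was 0.06, against 0.09 over all genes.

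Kdm2b had 46.5, 48.6 and 45.3 CPM with LacZ and 54.4, 58.0 and 56.1 CPM with JMJD1A(WT). The wild-type libraries were all higher, with a log2 fold change of 0.26 (SE 0.064, edgeR adjusted p = 0.00412), and this call held with each library left out. P4ha2 had 117, 100.2 and 111 CPM with LacZ and 94.3, 97.4 and 100.2 CPM with JMJD1A(WT), a log2 fold change of -0.17 (SE 0.052, edgeR adjusted p = 0.0332). LacZ replicate 2 was within reach of the wild-type libraries, and leaving out LacZ replicate 1 or 3 or wild-type replicate 1 or 2, or using DESeq2, ended the call (values from -0.22 to -0.12). Kdm5b had 135, 133 and 127 CPM and 117, 119 and 119 CPM, a log2 fold change of -0.15 (SE 0.046, edgeR adjusted p = 0.0253), which depended on LacZ replicates 1 and 2 and wild-type replicates 1 and 3 (values from -0.18 to -0.14 with a library left out). Egln3 had 73.9, 69.95 and 71.0 CPM and 76.8, 82.1 and 81.8 CPM, a log2 fold change of 0.17 (SE 0.055, edgeR adjusted p = 0.0443). Its call ended when replicate 2 or 3 of LacZ or of the wild type, or replicate 1 or 2 of the mutant, was left out (values from 0.15 to 0.19), and with DESeq2 or no filter on low counts.

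The 3 members that had changed most on knockdown did not pass the test on rescue. Plod2 had 102, 109.5 and 109 CPM with LacZ and 110.0, 110.1 and 110.5 CPM with JMJD1A(WT), and the interval of its log2 fold change ran from -0.06 to 0.15. A return of Plod2 by the size of its rise on knockdown lies outside that interval. Tet1 had 12.6, 10.6 and 8.27 CPM and 7.27, 7.82 and 9.25 CPM, a log2 fold change of -0.33 (SE 0.15, edgeR adjusted p = 0.21) with an interval from -0.64 to -0.02. P4ha3 varied widely with LacZ, at 9.33, 4.46 and 6.15 CPM, and had 9.11, 7.58 and 6.65 CPM with JMJD1A(WT), a log2 fold change of 0.17 (SE 0.18, edgeR adjusted p = 0.678). All 11 adipocyte markers were higher with JMJD1A(WT), led by Retn (2.47) and Cidec (1.40), with summed levels of 3488 to 3570 CPM with LacZ and 4035 to 4406 CPM with JMJD1A(WT), and their part in the changes of the dioxygenases was not tested. Of the 10 preadipocyte and fibroblast markers 4 were higher and 1 lower, or 50.0% called against 9.50% of all genes. These 10 summed to 18530 to 18710 CPM with LacZ and 19200 to 19850 CPM with JMJD1A(WT).

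**Figure D3:**
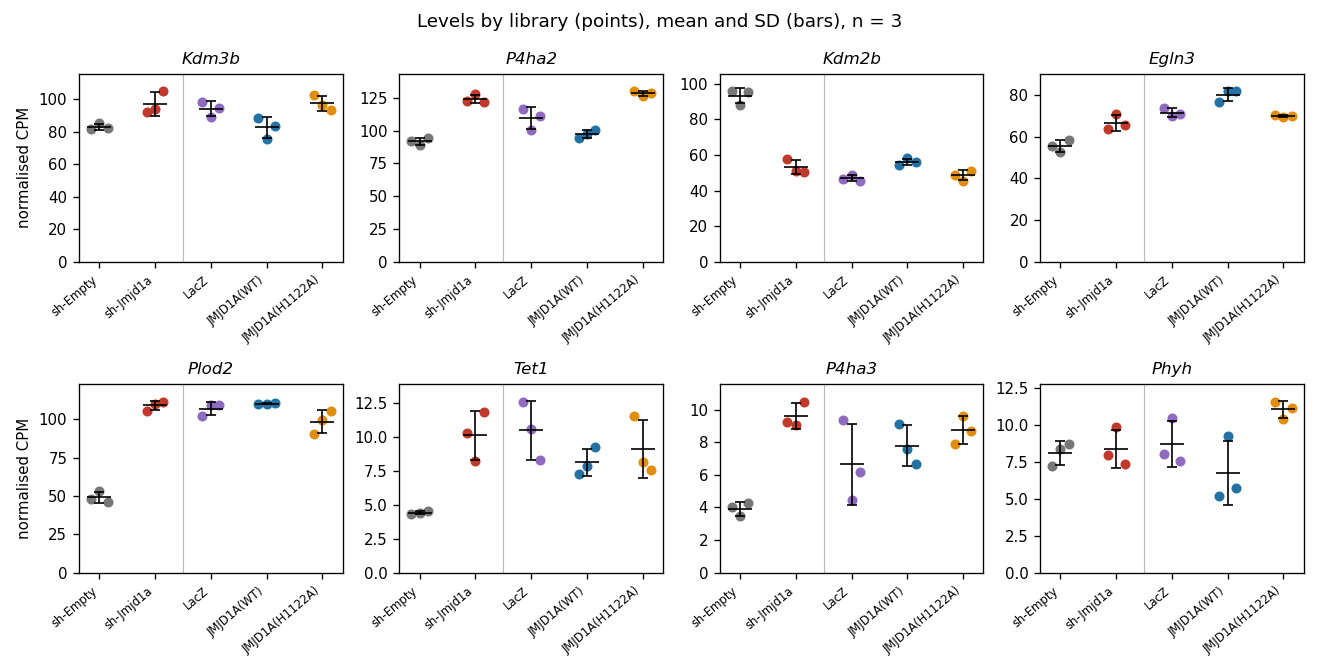
Normalised CPM (vertical axes, from 0) of 8 members in each library of the 5 conditions, with the mean and SD as bars and a line between the knockdown and rescue sets. Kdm3b, P4ha2 and Kdm2b move one way with the hairpin and the other way with JMJD1A(WT). Plod2 is higher with the hairpin, and has 102 to 109.5 CPM with LacZ and 110.0 to 110.5 CPM with JMJD1A(WT). The knockdown and rescue sets were scaled separately.

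Between the mutant and the wild-type construct more members differed. With JMJD1A(H1122A), 14 of 49 were called against JMJD1A(WT), and 13 of 48, or 27.1%, without Kdm3a, against 23.8% of all genes (12.1% higher and 11.7% lower). Of the 13, 8 were higher and 5 lower. Their median absolute log2 fold change over all 48 was 0.14, and that of all genes was also 0.14. The JMJD1A(WT) libraries are shared with the comparison against LacZ, so the values of both comparisons are not independent.

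P4ha2 had 130.4, 127 and 129 CPM with JMJD1A(H1122A), above every JMJD1A(WT) library, with a log2 fold change of 0.40 (SE 0.052, edgeR adjusted p = 4.68e-08). P4ha1 had 339, 343 and 338 CPM with JMJD1A(WT) and 364, 363 and 381 CPM with the mutant, a log2 fold change of 0.12 (SE 0.038, edgeR adjusted p = 0.016). Plod1 had 405, 410.1 and 399 CPM and 461, 471 and 467 CPM, a log2 fold change of 0.21 (SE 0.036, edgeR adjusted p = 1.48e-05). These 3 collagen enzymes were higher with the mutant without overlap, while Plod2 and Plod3 were lower. Plod2 had 90.7, 99.4 and 105 CPM with the mutant, a log2 fold change of -0.16 (SE 0.053, edgeR adjusted p = 0.0189), and Plod3 went from 276, 272 and 276 CPM to 252, 244 and 251 CPM, a log2 fold change of -0.14 (SE 0.039, edgeR adjusted p = 0.0058).

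Phyh showed the largest difference between the constructs of all members tested, Kdm3a included. It had 8.06, 10.5 and 7.57 CPM with LacZ, 5.22, 9.22 and 5.75 CPM with JMJD1A(WT) and 11.6, 10.4 and 11.1 CPM with JMJD1A(H1122A). The mutant libraries were above all wild-type libraries, with a log2 fold change of 0.77 (SE 0.16, edgeR adjusted p = 0.000385), and JMJD1A(WT) replicate 2 stood above the other wild-type libraries. Kdm2b had 48.6, 45.6 and 51.2 CPM with the mutant, a log2 fold change of -0.21 (SE 0.065, edgeR adjusted p = 0.0124) that was not called without JMJD1A(H1122A) replicate 2. Egln3 had 70.6, 69.7 and 70.1 CPM, a log2 fold change of -0.20 (SE 0.056, edgeR adjusted p = 0.007). Kdm5b had 131, 126 and 133 CPM, a log2 fold change of 0.13 (SE 0.047, edgeR adjusted p = 0.0344). Jmjd6, which acts on lysines of splicing factors, had 51.4, 61.3 and 52.5 CPM with JMJD1A(WT) and 62.5, 59.6 and 64.3 CPM with the mutant, groups that overlapped. Its log2 fold change of 0.18 (SE 0.067, edgeR adjusted p = 0.0385) was not called without JMJD1A(WT) replicate 1 or 3 or JMJD1A(H1122A) replicate 1 or 3, nor with DESeq2. All 11 adipocyte markers were lower with the mutant than with the wild type, led by Retn (-3.64) and Adipoq (-2.52), and their summed level with the mutant was 2682 to 2793 CPM. Their part in these differences was not tested.

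Set against LacZ, JMJD1A(H1122A) changed 3 of 49 members, Kdm3a, P4ha2 and Plod1, all higher and none lower, where 9.24% of all genes were called (4.78% higher and 4.46% lower). P4ha2 was higher by 0.23 (SE 0.052, edgeR adjusted p = 0.00196) and Plod1, with 414, 422 and 421 CPM in the LacZ libraries, by 0.15 (SE 0.036, edgeR adjusted p = 0.00282). Neither gene overlapped between the groups. Among the members not called, the 30 with at least 20 CPM with LacZ had intervals within 0.30 of 0. No member was called lower by edgeR, where 4 had an unadjusted p under 0.05, and 1 was called lower with DESeq2. Adipocyte markers were lower in 10 of 11, as described by their sums above.

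The comparisons can be read side by side for the members called on knockdown. Of the 14 members higher on knockdown, 2 fell below LacZ with JMJD1A(WT) (Kdm3b and P4ha2), 1 was higher (Egln3) and 11 were not called. Of the 9 members lower on knockdown, Kdm3a left out, Kdm2b was higher with JMJD1A(WT) and 8 were not called. The knockdown and rescue sets share no libraries. Over all genes, 11.3% of the 5583 called on knockdown and tested in both sets were called the opposite way with JMJD1A(WT), against 3 of 23 members, so that the members were near the rate of other genes. Of the genes higher on knockdown 10.9% were lower and 4.11% higher with JMJD1A(WT), and of those lower on knockdown 11.6% were higher and 3.40% lower. The mutant is set beside these values against LacZ and against the wild type, and the latter shares its JMJD1A(WT) libraries with the rescue comparison. For Kdm3b the log2 fold change was 0.23 on knockdown, -0.19 for the wild type against LacZ, 0.24 for the mutant against the wild type and 0.05 (not called) for the mutant against LacZ. In the same order P4ha2 had 0.43, -0.17, 0.40 and 0.23, each of them called. Kdm2b had -0.81, 0.26, -0.21 and 0.05, the last not called. Egln3 had 0.26, 0.17, -0.20 and -0.03, the last not called, and was higher both on knockdown and with the wild type. The rescue calls of Kdm3b, P4ha2 and Egln3 were each lost when any of several single libraries was left out, as given above, while the direction stayed the same. No call was made in any comparison for 20 of the 48 members tested, Kdm3a left out, and Kdm4d was not tested.

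**Figure D4:**
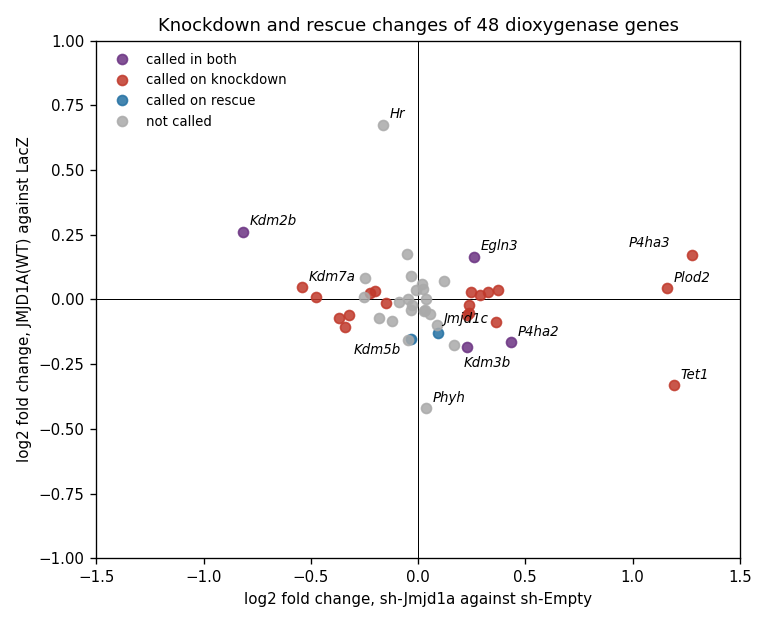
Log2 fold changes of 48 members in sh-Jmjd1a against sh-Empty (horizontal axis) and in JMJD1A(WT) against LacZ (vertical axis), coloured by the comparisons in which a gene was called. Kdm3b and P4ha2 lie at the lower right and Kdm2b at the upper left, while Plod2 and P4ha3 lie far to the right with values of 0.04 and 0.17 on the vertical axis.

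Some of the HIF hydroxylases and of the collagen hydroxylases are known as hypoxia genes. The stretch before the start site of the members was therefore read for ACGTG, the core of the hypoxia response element. Of the 50 members 40 had an entry in the RefSeq promoter table of GRCm38.p6, and the 250 bases before the start were searched on both strands. ACGTG was found in 17 of 40 members (42.5%), in 25.4% of 9430 genes tested in both sets and in 18.5% of all genes of the table. It was found in 5 of 10 members higher on knockdown, 4 of 10 lower, Kdm3a among the 10, and 8 of 19 not called. The E-box CACGTG, which contains ACGTG, was in 3 (7.50%) against 9.92% of the tested genes. The sequences of 4 members higher on knockdown are given, chosen after the values were seen, as those of the prolyl 4-hydroxylase and HIF hydroxylase groups with a match, with the core in capitals as it reads on the gene's strand (ACGTG, or CACGT where the match is on the other strand).
P4ha1, chr10:59323046-59323295, plus strand: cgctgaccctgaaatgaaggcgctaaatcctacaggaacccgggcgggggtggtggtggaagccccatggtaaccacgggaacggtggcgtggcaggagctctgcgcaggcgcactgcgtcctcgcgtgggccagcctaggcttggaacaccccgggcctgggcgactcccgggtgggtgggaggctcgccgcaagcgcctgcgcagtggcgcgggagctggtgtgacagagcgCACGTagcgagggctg
P4ha2, chr11:54100674-54100923, plus strand: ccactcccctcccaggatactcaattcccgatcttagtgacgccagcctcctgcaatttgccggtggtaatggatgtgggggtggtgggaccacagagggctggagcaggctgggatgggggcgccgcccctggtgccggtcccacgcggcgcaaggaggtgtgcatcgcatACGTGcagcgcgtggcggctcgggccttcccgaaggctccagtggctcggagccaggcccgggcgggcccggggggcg
Egln1, chr8:124949255-124949504, minus strand: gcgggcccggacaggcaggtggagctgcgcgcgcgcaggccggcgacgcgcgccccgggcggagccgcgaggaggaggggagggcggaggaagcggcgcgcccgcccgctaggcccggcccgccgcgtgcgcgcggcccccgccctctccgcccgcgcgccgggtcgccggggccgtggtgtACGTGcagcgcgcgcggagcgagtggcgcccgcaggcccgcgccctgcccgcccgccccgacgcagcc
Egln3, chr12:54203875-54204124, minus strand: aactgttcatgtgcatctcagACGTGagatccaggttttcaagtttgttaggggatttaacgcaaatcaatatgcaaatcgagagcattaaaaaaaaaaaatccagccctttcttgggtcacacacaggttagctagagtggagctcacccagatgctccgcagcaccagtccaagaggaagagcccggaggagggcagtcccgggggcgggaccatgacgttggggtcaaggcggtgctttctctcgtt
Each holds 1 match. Members with a match that were lower on knockdown were Kdm7a, Egln2, P3h1 and Plod3, so that a match went with either direction. A match is a description of the sequence and was not measured for binding here.

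Genes around the family were counted from lists made for this purpose. Of 16 further dioxygenases 10 were tested, with 2 higher and 3 lower on knockdown, or 50.0% called against 46.2% of all genes. They included Kdm6a, an H3K27 demethylase on the X chromosome, at 0.36 (SE 0.065, edgeR adjusted p = 4.23e-05), and Phf8, described above, at -0.60 (SE 0.078, edgeR adjusted p = 2.33e-07), both named after their values were seen. None of the 10 was called by edgeR with JMJD1A(WT) against LacZ, where 1 had an unadjusted p under 0.05. In the other comparisons 1 was lower with the mutant against the wild type and 1, Jmjd7 (0.66), was higher with the mutant against LacZ, where 23.8% and 9.24% of all genes were called. Enzymes that make or use 2-oxoglutarate were lower in 8 of 14 and higher in 2 on knockdown, or 71.4% called against 46.2% of all genes (23.9% lower and 22.3% higher). Idh3a, a mitochondrial isocitrate dehydrogenase subunit, had a log2 fold change of -1.003 (SE 0.050, edgeR adjusted p = 7.57e-16) and the cytosolic Idh1 of -0.85 (SE 0.037, edgeR adjusted p = 4.03e-17), and with JMJD1A(WT) against LacZ both were higher, at 0.27 and 0.34. These genes were also named after their values were seen. In the hypoxia list of 23, 1 gene was higher and 5 lower with JMJD1A(WT) against LacZ, or 26.1% called against 9.50% of all genes. The lower genes were led by Ndrg1 (-0.40) and Higd1a (-0.19), and the same pair led the 5 that were higher with the mutant against the wild type, where 12.1% of all genes were higher (1.14 and 0.38). Against LacZ the mutant raised Ndrg1 by 0.74, and Epas1, the gene of HIF-2 alpha, had -1.56 at a mean of 1.89 CPM with LacZ.

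Per kb of exon, the levels in sh-Empty cells spanned from 66.8 ± 1.33 CPM per kb in P4ha1 and 65.9 ± 1.14 in Plod3, which did not differ beyond their SD, to 0.30 in Tet1 and 0.038 in Kdm4d (SD, n = 3). After Plod3 came Plod1 and then Kdm3a at 35.6 ± 1.47, so that Kdm3a was the most abundant JmjC gene by length before any construct. Egln2 (29.7 ± 1.93), P3h1 (29.1 ± 1.76) and Kdm2a (27.9 ± 0.54) came next, and in that order each differed from the one after it by less than the larger of their SDs. Within the HIF hydroxylases the order was Egln2, Egln3 (20.9 ± 1.12), Hif1an and Egln1 (16.9 ± 0.41). The means of Hif1an and Egln1 were further apart than either SD, while their ranges of mean ± SD overlapped. After Kdm4d, the members rarest by length, P4ha3, P3h2, Kdm8, Hr and Tet1, were at 1.29 CPM per kb or less. The length was that of all annotated exons of a gene, merged, and the order depends on it. In mean CPM not divided by length, Kdm2a (212.6), Kdm7a (198.2) and Jmjd1c (196.0) were above Kdm3a (176.5) in sh-Empty cells.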

How the data were processed

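Poly(A) RNA of 15 libraries from 3T3-L1 cells was measured by RNA-seq. The authors deposited raw whole-number counts per Entrez Gene number, made per the labels with featureCounts after read cleaning with fastp and HISAT2 alignment to the mouse build mm9. The kit is named differently in the labels and the methods, and the strand setting of the counting is not given in the sources used here, so reads of 12 members whose exons overlap an opposite-strand gene may be shared. Symbols came from RefSeq (GRCm38.p6, for names and promoter sequence), and gene models, exon lengths and mm9 coordinates from GENCODE M1.

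The tool was edgeR 4.0.16 under R 4.3.3 (TMM, filterByExpr with a minimum count of 10, robust quasi-likelihood F test, Benjamini-Hochberg adjustment over all genes tested, threshold 0.05). The standard error is the size of the log2 fold change divided by the square root of F, and intervals are at 95%. Kdm4d did not pass the filter, and 49 members were tested. No block was used. No pair of libraries of a condition agreed within sampling noise (chi-square per degree of freedom 2.07 to 5.44), so none was taken as a library deposited a second time, and depths of 11437058 to 25523148 counts limit the precision for members under a few CPM. The procedure was tested on simulated data. The alternatives were RLE size factors, DESeq2 1.42.0, other filters, the legacy edgeR method, a threshold of 0.01, all 15 libraries in 1 fit, a block for the replicate number, and leaving out each library in turn.

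The members, the context lists and the tests were chosen with earlier results of these data known. The genes named are Kdm3a, the H3K9 demethylases, the 10 called members with the largest change in each comparison, and those called in all 3 main comparisons. From the context lists some called genes are named, not in each direction of every list and comparison. The other called members are given as well.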

Additional observations from a re-analysis of the deposited data

How the results depend on the processing

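The knockdown counts of called members stayed within 1.5 times of the main value under each alternative run, as did the numbers called higher in the first 3 comparisons. At an adjusted p under 0.01, 2 members were called with JMJD1A(WT) against LacZ, 0 of them lower, and 9 with JMJD1A(H1122A) against JMJD1A(WT), 3 of them lower. With DESeq2, 4 were called with JMJD1A(WT) against LacZ, 2 of them lower, and 1 was lower with JMJD1A(H1122A) against LacZ, as was 1 with at least 10 counts in every library. With each library left out in turn, 3 to 7 members were called with JMJD1A(WT) against LacZ, 0 to 4 of them lower, the fewest without LacZ replicate 3 and with 0 lower without LacZ replicate 1. The number lower with JMJD1A(H1122A) against JMJD1A(WT) was 3 to 6, at 3 without JMJD1A(WT) replicate 3. Against LacZ the mutant gave 3 to 5 calls, 3 to 5 higher and 0 to 1 lower, with 5 without LacZ replicate 1. The cause of these shifts was not tested, beyond a smaller number of samples or a stricter threshold by construction.

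Some differences that were not called changed sign when a library was left out. Hr ranged from -0.44 to 0.065 on knockdown and from -0.13 to 0.44 in JMJD1A(H1122A) against LacZ. Kdm4a ranged from -0.028 to 0.062 on knockdown, from -0.032 to 0.026 in the mutant against the wild type and from -0.0042 to 0.10 in the mutant against LacZ. Kdm4c ranged from -0.065 to 0.0089 on knockdown and Phf2 from -0.014 to 0.048 in the mutant against the wild type. No called member changed sign. The difference between knockdown and control in the summed H3K9 demethylases went from 0.30 to -1.30 CPM per kb with Phf8 added, a choice made after seeing the data. Of 55 results for single named members, 35 kept their direction and their side of the threshold in every setting.

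Replicate numbers did not pair the libraries, with correlations of the same-numbered deviations from -0.044 to 0.054 over 12 pairs. With the replicate block, 5 members were called with JMJD1A(H1122A) against LacZ, 1 of them lower, and the counts in the other comparisons stayed within 1.5 times.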
